A study of Mus musculus with 47 samples.

Results

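The genes described here are 9 transcription factor genes of the AP-1 and ATF3 group: Fos, Fosb, Fosl2, Jun, Junb, Jund, Atf3, Batf and Maff. They were taken by gene symbol from the RNA-seq tables. All 9 are among the 51912 genes of each bone marrow-derived macrophage (BMDM) library, and all 9 were listed in every Raw264.7 library apart from D/E-A, whose table of 12771 genes does not list Fosb. The study asked how Zmynd8, a reader of histone marks, shapes inflammatory gene expression in macrophages. Of its 47 samples, 12 RNA-seq libraries were used here, 6 from BMDMs and 6 from the mouse macrophage line Raw264.7, and 35 samples were not analysed here.

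BMDMs were grown with M-CSF from the marrow of C57BL/6 mice. WT mice were Zmynd8 fl/fl littermates without Cre. Zmynd8 cKO mice were Zmynd8 fl/fl and heterozygous for Lyz2-Cre, which drives Cre from the lysozyme 2 locus of myeloid cells. All of these mice thus carried the floxed allele, and their age is not given in the sources used here. BMDMs of each genotype were left without treatment (NT), or received a 6 h treatment: LPS, the endotoxin of Gram-negative bacteria, at 100 ng/ml, or IL-4, a cytokine that drives alternative activation, at 20 ng/ml. RNA of 3 biological replicates was mixed into each library, so there is 1 library for each condition and no condition has a replicate of its own. In Raw264.7 cells, Zmynd8 had been knocked out with a lentiviral CRISPR vector and the cells were used as such (Zmynd8 KO) or after re-expression of WT Zmynd8 or of the D/E-A mutant, in which the acidic residues of a disordered region were changed to alanine. The labels of these 3 libraries give no treatment, while the study's text places the WT Zmynd8 and D/E-A cells after LPS. The other 3 Raw264.7 libraries were treated with LPS, at a dose and time that the labels do not give, and were from p65 KO cells, p65 KO cells with WT p65 and p65 KO cells with the p65 mutant K122R. The table column used for WT p65 carries the heading WT with LPS, without p65 KO in its name.

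AP-1 factors are basic leucine zipper (bZIP) proteins. Fos proteins cannot pair with each other and bind DNA as heterodimers with Jun proteins, whereas Jun proteins also pair among themselves. Fos, Fosb, Jun, Junb and Atf3 belong to the immediate-early genes, which are transcribed within minutes of a signal and whose mRNAs are short-lived, so that levels at 6 h are read long after the first peak. In macrophages, signals from Toll-like receptors reach these genes through MAP kinases. Atf3 limits the transcription of cytokine genes, Batf and the small Maf protein Maff lack a transactivation domain of their own, and Batf binds DNA with Jun proteins and interferon regulatory factors.

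The promoter sequences of 4 genes are shown because their transcripts went apart after LPS: Fos and Jun fell, and Junb and Atf3 rose (values below). Each is the 250 bases before the transcript start in RefSeq (GRCm38.p6), read 5′ to 3′ on the strand of the gene, and capitals mark the motifs found. The Fos promoter is at chr12:85473640-85473889 (plus strand), that of Jun at chr4:95052223-95052472 (minus), that of Junb at chr8:84978749-84978998 (minus) and that of Atf3 at chr1:191183334-191183583 (minus).
Fos: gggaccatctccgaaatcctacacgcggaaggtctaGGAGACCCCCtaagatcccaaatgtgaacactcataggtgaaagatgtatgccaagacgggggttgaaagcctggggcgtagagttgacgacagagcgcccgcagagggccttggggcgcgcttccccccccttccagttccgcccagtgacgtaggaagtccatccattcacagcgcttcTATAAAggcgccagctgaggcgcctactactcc
Jun: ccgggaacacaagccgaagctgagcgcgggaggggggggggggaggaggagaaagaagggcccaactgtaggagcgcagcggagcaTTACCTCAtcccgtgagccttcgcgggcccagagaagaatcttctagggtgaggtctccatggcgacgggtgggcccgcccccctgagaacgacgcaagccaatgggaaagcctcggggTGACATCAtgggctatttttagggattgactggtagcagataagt
Junb: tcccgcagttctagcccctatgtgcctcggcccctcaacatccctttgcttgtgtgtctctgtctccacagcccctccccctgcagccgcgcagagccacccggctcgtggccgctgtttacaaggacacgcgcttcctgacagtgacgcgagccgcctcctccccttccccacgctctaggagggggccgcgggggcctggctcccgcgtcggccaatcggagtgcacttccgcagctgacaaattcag
Atf3: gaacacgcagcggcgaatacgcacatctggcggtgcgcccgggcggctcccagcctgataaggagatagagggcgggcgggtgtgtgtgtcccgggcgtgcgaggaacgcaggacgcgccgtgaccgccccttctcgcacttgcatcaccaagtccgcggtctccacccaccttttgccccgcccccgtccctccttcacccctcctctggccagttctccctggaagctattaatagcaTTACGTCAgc

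Motifs were searched on both strands. TGACTCA is the classical AP-1 element and TGACGTCA is the cAMP response element. TGACATCA and the site TGACGTAA are single-base relatives of the latter, and TTACCTCA is a further AP-1 or ATF-like element of the Jun promoter. The match of TTACCTCA in Jun was thus set by the choice of that motif. No other single-base relative of TGACGTCA was searched. The TATA box was searched as TATAAA, and the CArG box and the κB site by their usual consensus. In Fos, the capitals mark a κB site on the minus strand, 214 bases before the start, and TATAAA, 33 bases before it. Among 32851 promoters of the same length, 7.25% hold a κB site and 12.4% hold TATAAA. The Jun promoter held TTACCTCA and TGACATCA, 164 and 45 bases before the start, which occur in 0.728% and 2.93% of all promoters. In Atf3, TGACGTAA was read on the minus strand as TTACGTCA, 10 bases before the start, and 0.447% of all promoters hold it. No searched motif was found in the Junb window or in those of Jund, Batf and Maff, while Fosb held 1 κB site and Fosl2 held 2 that overlap. Neither TGACTCA, which 4.46% of promoters hold, nor TGACGTCA (1.55%) nor the CArG box (1.47%) was found in any of the 9 windows. A match describes letters in these windows, the shares over all promoters test nothing, and no binding was measured here.

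BMDM libraries held 22597408 to 28386612 reads over genes and Raw264.7 libraries 15127110 to 21042628. Zmynd8 was slightly lower in cKO than in WT without treatment and slightly higher with LPS and IL-4: it was 87.1 CPM (the read count scaled to the library total) in WT and 81.5 CPM in cKO without treatment, 79.0 and 86.8 CPM with LPS, and 128 and 151 CPM with IL-4. A count over the whole gene does not separate the floxed exons and checks no genotype. Lyz2, whose locus carries Cre, was lower in cKO in each condition, for example 2892 against 6902 CPM after LPS. The 3 Zmynd8 lines stood apart from the 3 p65 lines. Xist, an RNA of female cells, was at 338 to 460 CPM in the Zmynd8 lines and at 0 to 0.198 CPM in the p65 lines. All 8 genes of a neutrophil marker list were detected in the Zmynd8 lines, with a summed level of 4422 to 10353 CPM, against 0.180 to 0.319 CPM in the p65 lines, whose tables list 3 of the 8. The same sum was 2.33 to 514 CPM in BMDMs. The 8 macrophage markers were all detected in every library, with sums of 6513 to 10291 CPM in BMDMs, 2889 to 4493 CPM in the Zmynd8 lines and 1630 to 1985 CPM in the p65 lines. All 4 B cell markers were above 10 CPM in each Zmynd8 line, with sums of 102 to 147 CPM. Their sums were 5.42 to 8.17 CPM in the p65 lines, whose tables list 3 of the 4. The sums of 6 dendritic cell markers were 102 to 176 CPM in the Zmynd8 lines. In the p65 lines they were 30.8 to 42.7 CPM, with 5 of the 6 listed. Whether the Zmynd8 and p65 lines are the same cell line was not tested. Entries of ribosomal RNA took 8.17% to 17.1% of reads in the Zmynd8 lines and 0.228% to 0.636% in the p65 lines. Their part in the differences between lines was not tested, and fold differences are taken only within the Zmynd8 lines and within the p65 lines.

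Levels in BMDMs are given first, as CPM with the 95% exact Poisson interval of the read count, which covers counting error only. A lower level in a pooled library can be less RNA per cell or fewer cells that express the gene, which cannot be told apart here. Fos, the immediate-early partner of Jun proteins, was at 154 CPM (149 to 159) in WT and 131 CPM (126 to 135) in cKO without treatment. After LPS it was at 38.9 CPM (36.5 to 41.4) in WT and 50.5 CPM (47.7 to 53.5) in cKO. After IL-4 it was at 156 CPM (152 to 161) in WT and 148 CPM (144 to 153) in cKO. The LPS libraries were thus the low ones for Fos, and among the NT and IL-4 libraries untreated cKO lay below the other 3, whose intervals overlapped.

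Fosl2, which encodes the Fos-related protein FRA2, had another order. It was at 53.6 CPM (50.8 to 56.4) in WT and 35.1 CPM (32.7 to 37.7) in cKO without treatment, and at 21.6 CPM (19.8 to 23.5) in WT and 26.5 CPM (24.5 to 28.7) in cKO after LPS. After IL-4 it was at 154 CPM (149.5 to 159) in WT and 117 CPM (113 to 121) in cKO. The IL-4 libraries were highest and the LPS libraries lowest, and no interval overlapped another among the 6. Fosb was near the limit of detection, with 28 reads in WT and 44 in cKO without treatment, 2 and 1 with LPS and 3 and 4 with IL-4.

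Jun, the founding member of its family, was at 226 CPM (220 to 232) in WT and 206 CPM (200 to 212) in cKO without treatment. After LPS it was at 107 CPM (103 to 112) and 112 CPM (108 to 117), and after IL-4 at 147 CPM (143 to 152) and 150 CPM (145 to 154). Jun was therefore highest in untreated cells of either genotype. Junb, a weaker activator that can compete with Jun, ran the other way. It was at 126 CPM (121 to 130) in WT and 133 CPM (129 to 138) in cKO without treatment, at 407 CPM (399 to 415) and 414 CPM (406 to 423) when LPS was given, and at 455 CPM (447 to 463) and 457 CPM (449 to 465) with IL-4. All 4 treated libraries lay above the untreated ones, and WT and cKO intervals overlapped within each condition. Jund, the constitutively expressed member, had the narrowest range in BMDMs, from 98.6 CPM in WT after IL-4 to 133 CPM in WT after LPS, a ratio of 1.34.

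In untreated cells Atf3, a stress-induced repressor of cytokine genes, was at 407 CPM (399 to 414) in WT and 403 CPM (395 to 411) in cKO. After LPS it was at 798 CPM (787 to 809) in WT and 846 CPM (834 to 858) in cKO, and after IL-4 at 401 CPM (393 to 408) in WT and 310 CPM (303 to 317) in cKO. The cKO IL-4 library was the low one and the LPS libraries were the high ones. Batf was at 4.08 CPM (3.35 to 4.93) in WT and 6.55 CPM (5.54 to 7.69) in cKO without treatment, and at 65.6 CPM (62.4 to 68.8) and 51.3 CPM (48.4 to 54.2) after LPS. After IL-4 it was at 3.66 CPM (2.99 to 4.44) in WT and 9.95 CPM (8.78 to 11.2) in cKO, so that the LPS libraries were the high ones. Maff, which pairs with larger bZIP proteins, stayed between 3.62 CPM in untreated WT and 8.84 CPM in cKO after IL-4.

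**Figure D1:**
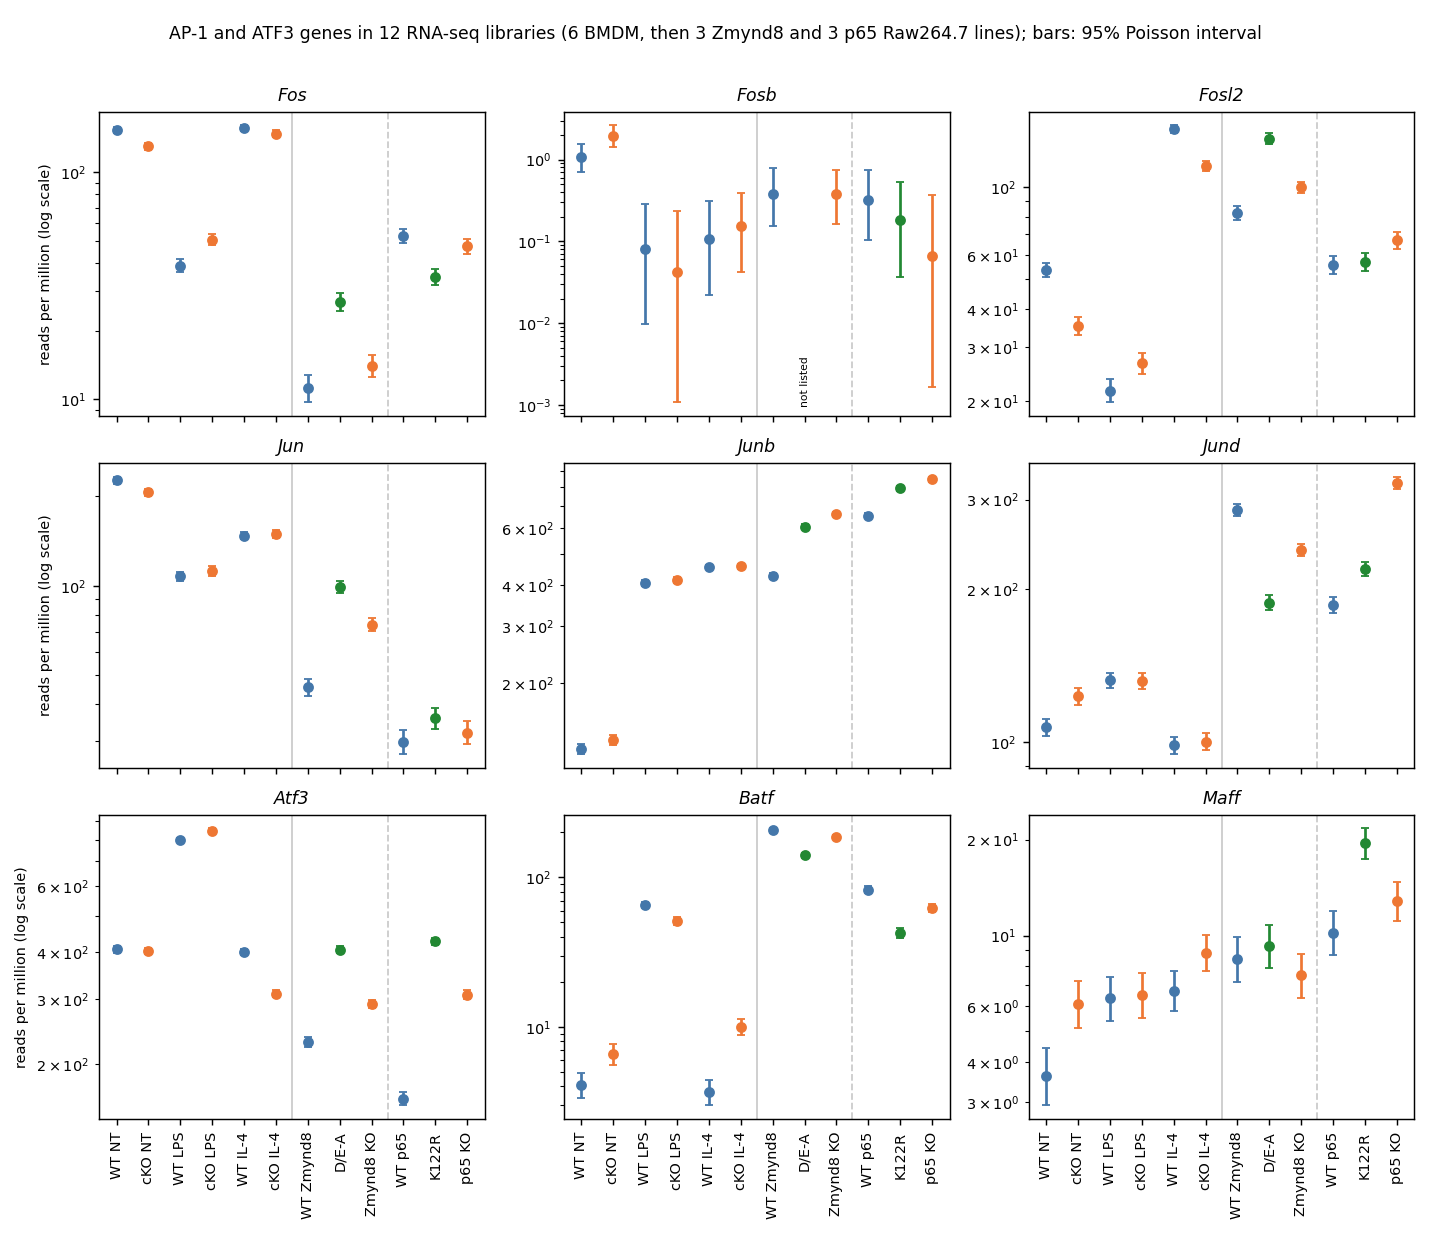
Levels of the 9 genes in the 12 libraries, in CPM on a log axis, with bars for the 95% exact Poisson interval of each count. Batf in BMDMs was highest after LPS (65.6 CPM in WT, 51.3 CPM in cKO), and Junb in BMDMs was lowest in the NT libraries (126 and 133 CPM).

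The range of levels in Raw264.7 cells was not that of BMDMs. Junb ranged from 427 to 846 CPM, against 126 to 457 CPM in BMDMs, and Batf ranged from 42.7 to 206 CPM, against 3.66 to 65.6 CPM. Jund ranged from 186 to 323 CPM and was above its highest BMDM level of 133 CPM in all 6 lines. Jun ranged from 29.9 to 98.9 CPM and Fos from 11.2 to 52.5 CPM, and Jun was below its lowest BMDM level of 107 CPM in all 6 lines. BMDMs and Raw264.7 cells differ in treatment, sequencing and counting as well as in origin, and these cannot be told apart. The tables were normalized separately, so levels set across them, between the Zmynd8 and the p65 lines too, are a description with no test. When the 12 levels of a gene were put in order, the intervals of neighbours overlapped in 2 of 11 neighbouring pairs for Fosl2 and Batf, in 4 for Atf3, in 5 for Jun, Junb and Jund, in 6 for Fos and in 9 for Maff. All 10 pairs of Fosb overlapped.

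To compare genes with each other within a BMDM library, the deposited TPM, in which reads are also divided by transcript length, were used. In untreated WT cells, Atf3 made up 41.2% of the summed TPM of the 9 genes, Fos 15.1%, Junb 14.1%, Jun 13.4% and Jund 13.3%. After LPS the largest shares in WT were Atf3 with 47.3%, Junb with 26.7% and Batf with 9.71%, and Fos was at 2.16%. After IL-4 the largest share in WT was Junb with 38.2%, above Atf3 with 30.3% and Fos with 11.3%. The ratio of Junb to Jun in TPM was 1.05 in untreated WT cells, 7.15 after LPS and 5.85 after IL-4. The summed TPM of Jun, Junb and Jund was 2.46 times that of Fos, Fosb and Fosl2 in untreated WT cells, 16.0 times after LPS and 3.71 times after IL-4. The share of each gene in cKO lay within 3 points of WT in each condition, apart from Atf3 after IL-4, which was at 25.0% against 30.3%. These are shares of RNA, and protein was not measured.

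**Figure D2:**
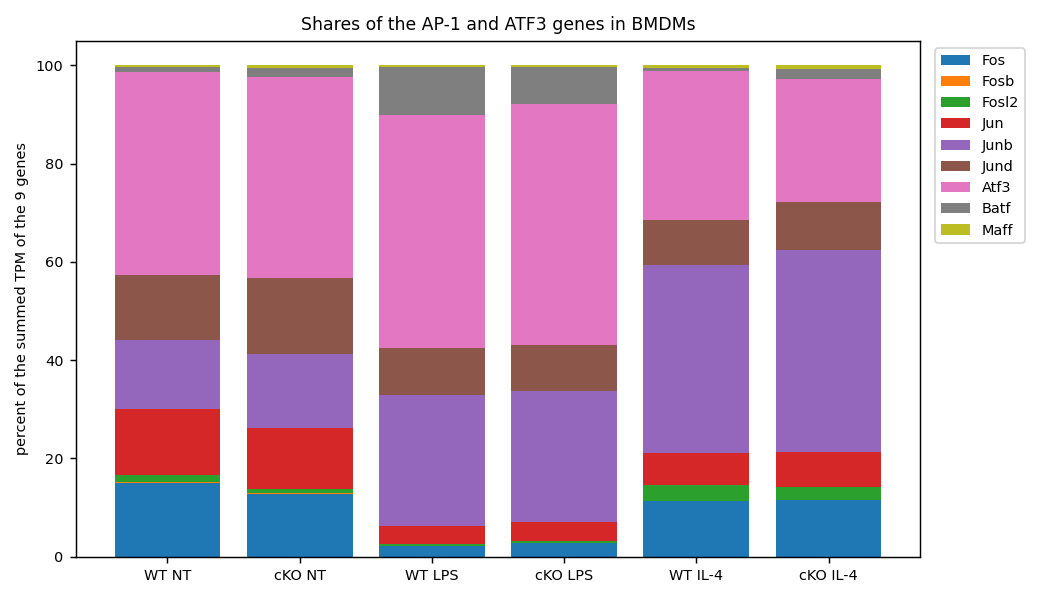
Shares of the 9 genes in their summed TPM in the 6 BMDM libraries, in percent, as stacked bars that add to 100. Atf3 holds the largest share in the NT and LPS libraries (41.2% and 47.3% in WT), and Junb holds the largest share in the IL-4 libraries (38.2% in WT).

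The response to LPS was asked next. In WT, 5 of the 9 genes rose and 4 fell. Calls needed a 1.2-fold difference in CPM plus 1 and, over all genes, an adjusted p below 0.05 in an exact binomial test. That test sets the reads of 2 libraries against each other and so compares libraries, not conditions. Of 12813 genes tested, 82% were called, 20.7% higher and 61.3% lower. Batf rose 16.1-fold (95% counting limits 13.2 to 19.7), Junb 3.24-fold (3.11 to 3.37), Atf3 1.96-fold (1.92 to 2.01), Maff 1.75-fold (1.35 to 2.28) and Jund 1.24-fold (1.18 to 1.30). Fos was 3.96-fold lower (3.69 to 4.26), Fosl2 2.48-fold lower (2.24 to 2.74) and Jun 2.10-fold lower (2.01 to 2.20). Fosb fell from 28 reads to 2, a ratio of 13.3 (3.35 to 115). With most genes called, the number of members called says little about them. The calls of Jund and Maff were the less firm ones: neither was called when separate libraries were assumed to vary by a biological coefficient of 0.2, which left 3 genes higher and 4 lower, and on the TPM scale Jund was not called, at 0.23 on the log2 scale. With the assumed variation of 0.2, 1685 of the 12813 genes were called higher and 5045 lower.

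In cKO, 3 of the 9 genes rose after LPS and 4 fell, and 82.9% of 12666 genes tested were called (23.9% higher, 59% lower). Batf rose 7.83-fold (6.59 to 9.35), Junb 3.10-fold (2.98 to 3.23) and Atf3 2.10-fold (2.05 to 2.15). Fos was 2.59-fold lower (2.42 to 2.77), Jun 1.83-fold lower (1.74 to 1.92) and Fosl2 1.32-fold lower (1.19 to 1.47), and Fosb fell from 44 reads to 1. Jund at 1.07-fold (1.02 to 1.13) and Maff at 1.06-fold (0.838 to 1.35) were not called. With the same assumed variation, Jun and Fosl2 were not called either, which left 3 genes higher and 2 lower. Over all 12666 genes, 1992 were then called higher and 4925 lower. The sum of 6 dendritic cell markers moved with LPS, from 1.72 to 15.8 CPM in WT and from 0.797 to 20.96 CPM in cKO, with 1 of the 6 at 0 in both LPS libraries and none above 10 CPM, and its part in these changes was not tested.

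After LPS the scaling set some of these directions. Under library totals the median log2 fold change of all genes tested was -0.58 in WT and -0.55 in cKO. The median ratio scaling shifted that median by 0.59 in WT and 0.56 in cKO. Fos, Jun and Fosl2 in WT, and Fos in cKO, were called lower, and Batf, Junb and Atf3 were called higher in both genotypes, under library totals, the median ratio and TMM. The falls in WT were smaller under the median ratio, at -0.36 against -1.07 for Jun, -0.59 against -1.27 for Fosl2 and -1.26 against -1.96 for Fos on the log2 scale. Jun in cKO lost its call, at -0.21 under the median ratio and -0.25 under TMM against -0.87 under library totals on the log2 scale, and Jund and Maff gained one as higher. Fosl2 in cKO changed direction and lost its call, from -0.39 under library totals to 0.25 under the median ratio and 0.20 under TMM on the log2 scale. Under the median ratio, 5 genes were called higher and 2 lower in cKO. Among all genes, the share of higher calls was 25.2% of calls in WT under library totals and 50.8% under the median ratio, and 28.8% and 51.1% in cKO.

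With IL-4, 3 of the 9 genes rose and 2 fell in WT, where 60.6% of 13090 genes tested were called (38.8% higher, 21.8% lower). Junb rose 3.62-fold (3.49 to 3.77), Fosl2 2.88-fold (2.71 to 3.06) and Maff 1.85-fold (1.44 to 2.39). Jun was 1.53-fold lower (1.47 to 1.60), and Fosb fell from 28 reads to 3. Fos, Jund, Atf3 and Batf were not called, at ratios of up to 1.11 in either direction. Jund was called lower under the median ratio and TMM, at -0.28 and -0.27 on the log2 scale against -0.12, so that 3 genes rose and 3 fell. In cKO, 4 rose and 4 fell among 12966 genes tested, of which 67.3% were called (42.4% higher, 24.9% lower). Junb rose 3.43-fold (3.29 to 3.57), Fosl2 3.33-fold (3.08 to 3.60), Batf 1.52-fold (1.24 to 1.87) and Maff 1.45-fold (1.17 to 1.80). Jun was 1.38-fold lower (1.32 to 1.44), Atf3 1.30-fold lower (1.26 to 1.34) and Jund 1.23-fold lower (1.16 to 1.30), and Fosb fell from 44 reads to 4. On the TPM scale Jun, Atf3 and Jund were not called in cKO and Fos was called higher, so that 5 genes rose and 1 fell, and the share of higher calls among all genes went from 62.97% to 76.6%. Under library totals, Junb was the gene that rose by more than 3-fold with both stimuli in both genotypes, while Fosl2 fell with LPS and rose with IL-4. The neutrophil marker sum moved with IL-4 too, from 2.33 to 382 CPM in WT and from 2.35 to 514 CPM in cKO, and its part in these changes was not tested.

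A fit of genotype plus treatment over the 6 BMDM libraries, chosen after seeing the data, took the change shared by both genotypes and used what was left, with 2 residual degrees of freedom, as its error (edgeR quasi-likelihood, Benjamini-Hochberg). Of 13074 genes, 62.4% were called for LPS and 21% for IL-4. For LPS, 3 of the 9 genes rose and 4 fell: Batf by 3.55 (log2, adjusted p = 0.001), Junb by 1.67 (adjusted p = 0.00086) and Atf3 by 1.02 (adjusted p = 0.0076) were higher, and Fos, Fosb, Jun and Fosl2 were lower, while Jund and Maff had adjusted p of 0.35 and 0.19. Under TMM Jun and Fosl2 were not called, at adjusted p of 0.18 and 0.53, and Jund and Maff were called higher. For IL-4, Junb was higher by 1.82 (adjusted p = 0.0024) and Fosl2 by 1.62 (adjusted p = 0.0087), and Fosb was lower. Jun, at -0.54 (adjusted p = 0.087), was called lower under TMM alone, at -0.71 (adjusted p = 0.038).

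**Figure D3:**
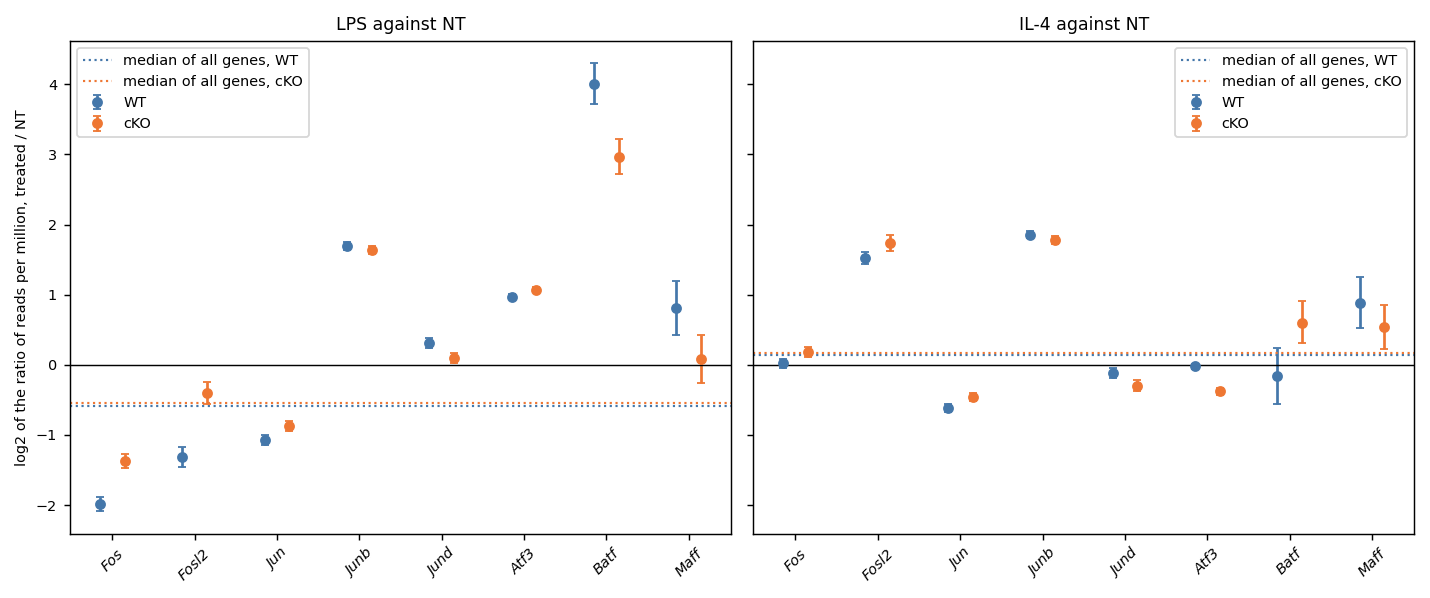
Log2 ratio of CPM after LPS or IL-4 against NT for the 9 genes apart from Fosb, which is not shown, in WT and cKO BMDMs, with 95% counting limits. Batf after LPS has the largest rise in either genotype (16.1-fold in WT and 7.83-fold in cKO), and Fosl2 lies below 0 after LPS and above 0 after IL-4.

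Next, cKO was compared with WT within each condition. Without treatment, 3 of the 9 genes were called higher and 1 lower in cKO, and 48% of 12463 genes tested were called (21.9% higher, 26.1% lower). Maff was 1.68-fold higher in cKO (1.29 to 2.21), Batf 1.60-fold higher (1.24 to 2.08) and Fosb 1.82-fold higher (1.11 to 3.04), whereas Fosl2 was 1.52-fold lower (1.40 to 1.67). Fos, at 1.18-fold lower (1.12 to 1.24), and Jund, at 1.15-fold higher (1.09 to 1.21), stayed under the fold limit, and Jun, Junb and Atf3 were within 1.10-fold of WT. On the deposited TPM scale the median of all genes in this pair was -0.20 (log2), against -0.01 in CPM, and Fosl2, Fos, Jun and Atf3 were then called lower and Batf and Maff higher. Calls on that scale rest on the fold alone, and 5491 of the 12463 genes were lower and 1552 higher.

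After LPS, 2 of 8 genes tested were called higher in cKO and 1 lower, with 26.2% of 12386 genes called (17.3% higher, 8.9% lower). Fos was 1.30-fold higher (1.19 to 1.42) and Fosl2 1.23-fold higher (1.09 to 1.38), and Batf was 1.28-fold lower (1.19 to 1.38). Fosl2 was not called under the median ratio or TMM, at 0.25 and 0.24 on the log2 scale against 0.29, which left 1 gene higher and 1 lower. Atf3 was 1.06-fold higher (1.04 to 1.08), under the fold limit, and the limits for Jun, Junb, Jund and Maff included 1. Fosb had too few reads to be tested. After IL-4, 2 of 8 were called higher and 2 lower, with 24.5% of 13245 genes called (14% higher, 10.6% lower). Batf was 2.72-fold higher (2.16 to 3.44) and Maff 1.32-fold higher (1.09 to 1.61), whereas Fosl2 was 1.32-fold lower (1.26 to 1.38) and Atf3 1.29-fold lower (1.26 to 1.33). The limits for Jun, Junb and Jund again included 1, so that under library totals the 3 Jun family genes were not called between genotypes in any condition. The counts of members called, 4 of 9, 3 of 8 and 4 of 8, rest on few genes and stand against 48%, 26.2% and 24.5% of all genes, and nothing particular to the 9 genes is read from them.

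Under library totals, the genes that were called in each of the 3 conditions were Fosl2 and Batf, with opposite signs, although the call of Fosl2 after LPS was lost under the median ratio and TMM, at 0.25 and 0.24 against 0.29, and kept on the TPM scale at 0.36 (log2). Fosl2 was lower in cKO where Batf was higher, and the reverse held after LPS. When a biological coefficient of variation of 0.2 was assumed between libraries, 0 of 9 genes were called between cKO and WT without treatment, 0 of 8 after LPS and 0 of 8 after IL-4. Few of all genes were called either: 81 higher and 192 lower of 12463 without treatment, and 22 and 15 of 12386 after LPS. After IL-4 they were 125 and 35 of 13245, so the 0 calls are not read as particular to the members. In the fit of genotype plus treatment, which takes the cKO effect shared by the 3 conditions and counts differences between conditions as error, 0 of the 9 genes were called, and 0% of 13074 genes (edgeR quasi-likelihood, under library totals and TMM), with 408 genes at an unadjusted p under 0.05. The shared difference was 0.54 for Batf, 0.39 for Maff and -0.24 for Fosl2 on the log2 scale (each with an adjusted p of 0.999). The counting limits above therefore do not say how far separate cultures would spread. In these pairs the neutrophil marker sum was 2.33 to 4.22 CPM in the NT and LPS libraries, and 382 CPM in WT and 514 CPM in cKO after IL-4. Xist was at 740 CPM in WT and 323 CPM in cKO without treatment, 246 and 429 CPM after LPS, and 1108 and 1057 CPM after IL-4. The part of either in the differences was not tested.

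**Figure D4:**
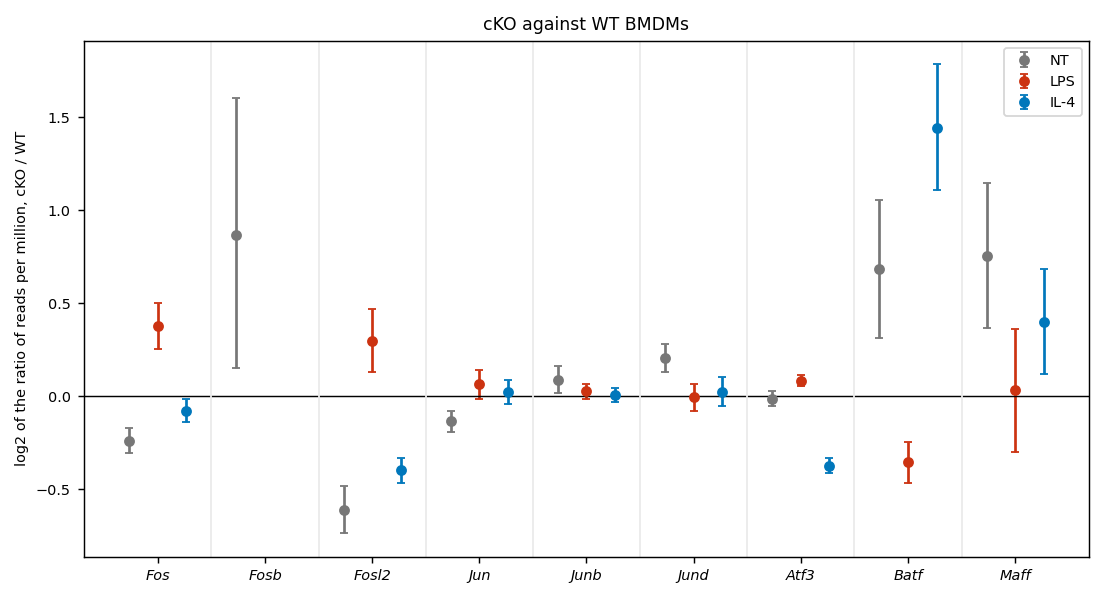
Log2 ratio of CPM in cKO to WT BMDMs for the 9 genes in NT, LPS and IL-4, with 95% counting limits. Fosl2 is below 0 in NT and IL-4 and above 0 in LPS, Batf is the reverse (2.72-fold higher after IL-4), and Fosb is shown in NT alone because it had too few reads elsewhere.

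The difference between the LPS responses of cKO and WT was then taken for the 8 genes with enough reads, on the log2 scale of CPM plus 1. The counting limits excluded 0 for 7 of the 8 genes, and for 62.8% of 11129 genes with enough reads, so the number is not read as particular to them. The response of Fosl2 was 0.88 higher in cKO (0.70 to 1.11) and that of Fos 0.60 higher (0.47 to 0.76), since both fell less in cKO. The limits in brackets are those of the ratio of reads without the 1 CPM, which was -1.04 for Batf and -0.72 for Maff. The responses of Jun and Atf3 differed by 0.20 (0.11 to 0.30) and 0.10 (0.05 to 0.15). The response of Batf differed by -0.92 (-1.41 to -0.66), that of Maff by -0.59 (-1.22 to -0.23) and that of Jund by -0.21 (-0.31 to -0.11), and for Junb the difference was -0.06 (-0.14 to 0.02). Because both responses rest on the NT libraries, part of each difference is the difference already present without treatment. On the TPM scale the difference was 0.28 for Junb and 0.13 for Jund, the opposite sign, and the limits for Maff included 0, while Fosl2, Fos and Batf kept their signs at 1.14, 0.98 and -0.65, and Jun and Atf3 were larger, at 0.54 and 0.44.

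In Raw264.7 cells, calls rest on the 1.2-fold limit alone, applied to the deposited values plus 1. With D/E-A against WT Zmynd8, 5 of 8 genes were higher and 2 lower, and 72.6% of 12770 genes passed that limit (36.7% higher, 35.9% lower). Fos was 2.46-fold higher with D/E-A (2.08 to 2.91), from 206 reads to 483, Jun 2.22-fold higher (2.04 to 2.41), Atf3 1.80-fold higher (1.74 to 1.87), Fosl2 1.79-fold higher (1.68 to 1.90) and Junb 1.45-fold higher (1.41 to 1.49). Jund was 1.49-fold lower (1.43 to 1.56) and Batf 1.43-fold lower (1.36 to 1.51). Maff, at 1.12-fold (0.896 to 1.41), did not pass.

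With Zmynd8 KO against WT Zmynd8, 5 of 9 genes were higher and 0 lower, with 70.3% of 21301 genes past the limit (33.8% higher, 36.5% lower). Jun was 1.71-fold higher in Zmynd8 KO (1.57 to 1.86), Junb 1.63-fold higher (1.58 to 1.67), Atf3 1.33-fold higher (1.28 to 1.38), Fos 1.32-fold higher (1.10 to 1.59) and Fosl2 1.28-fold higher (1.19 to 1.36). When the reads were scaled to totals without ribosomal RNA entries, 3 genes were higher and 1 lower, since Fos and Fosl2 no longer passed and Jund passed as lower. D/E-A and Zmynd8 KO share the WT Zmynd8 library, so a departure of that library would appear in both. Its neutrophil marker sum of 10353 CPM was the highest of the 3, against 4422 CPM in D/E-A and 6966 CPM in Zmynd8 KO, and its part in these differences was not tested.

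With K122R against WT p65, both after LPS, 5 of 9 genes were higher and 3 lower, with 63.3% of 19669 genes past the limit (30.8% higher, 32.5% lower). Atf3 was 2.92-fold higher with K122R (2.79 to 3.05) and Maff 2.10-fold higher (1.74 to 2.56). Junb, at 1.34-fold (1.31 to 1.38), Jun, at 1.32-fold (1.17 to 1.5), and Jund, at 1.30-fold (1.24 to 1.36), were higher by less. Batf was 1.76-fold lower (1.60 to 1.93) and Fos 1.38-fold lower (1.24 to 1.53), and Fosb had 5 reads in WT p65 and 3 in K122R, with limits that included 1. In CPM of the recovered reads, 3 genes were higher and 2 lower, since Jun, Jund and Fosb no longer passed. Among all genes the share of higher calls then went from 48.6% to 31.3%.

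With p65 KO against WT p65, 4 of 9 genes were higher and 2 lower, with 51.9% of 19879 genes past the limit (26.3% higher, 25.7% lower). Atf3 was 1.90-fold higher in p65 KO (1.81 to 1.99), Jund 1.73-fold higher (1.65 to 1.81), Junb 1.29-fold higher (1.26 to 1.33) and Maff 1.25-fold higher (1.0 to 1.56). Batf was 1.33-fold lower (1.22 to 1.45), and Fosb was lower on 1 read against 5, with limits that included 1. With an exact binomial test on the recovered reads as well, Maff and Fosb were not called, and 3 genes were higher and 1 lower. Rela, the gene of p65, was at 50.6 CPM in p65 KO, 102 CPM in WT p65 and 351 CPM in K122R. Atf3 and Junb were higher, and Batf not called higher, in all 4 Raw264.7 comparisons, which rest on 2 shared reference libraries.

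**Figure D5:**
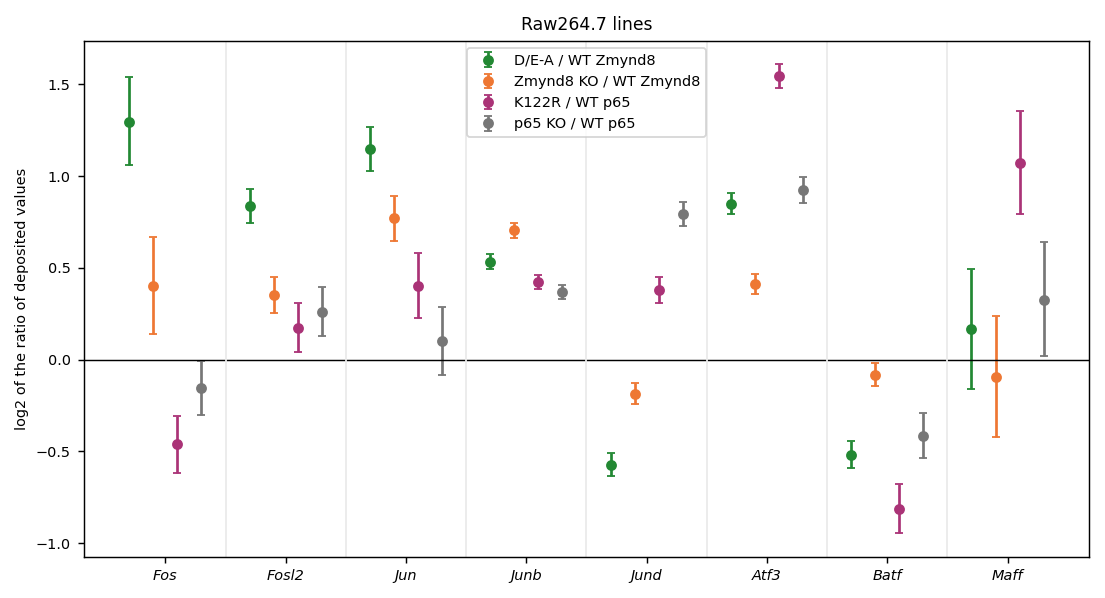
Log2 ratio of deposited values in the 4 Raw264.7 comparisons for 8 genes, with 95% counting limits; Fosb is not shown. Atf3 and Junb lie above 0 in all 4, and the largest ratio among the 8 genes shown is that of Atf3 in K122R against WT p65 (2.92-fold).

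At a limit of 2-fold, the counts of members were smaller. Between cKO and WT, 0 of 9 passed without treatment, where 3.83% of all genes did, 0 of 8 after LPS (0.904%) and 1 of 8, Batf, after IL-4 (1.97%). After LPS against NT, 5 of 9 passed in WT (43.3%) and 5 of 9 in cKO (46%), and after IL-4 against NT 2 of 9 in WT (16.2%) and 3 of 9 in cKO (21.1%). In Raw264.7 cells, 2 of 8 passed with D/E-A (18.4%), 0 of 9 in Zmynd8 KO (25.6%), 2 of 9 with K122R (20%) and 1 of 9, Fosb on its 6 reads, in p65 KO (15.8%).

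The other genes of the bZIP class, 42 in all, include dimer partners of the 9 such as Jdp2, Batf2 and Batf3. Of these, 37 were tested after LPS in WT, 10 rose and 22 fell, with a median log2 fold change of -0.53 against -0.58 for all genes, of which 20.7% rose and 61.3% fell. Under the median ratio scaling 16 rose and 13 fell. Batf2 rose 25.1-fold (21.5 to 29.4) and Jdp2 16.6-fold (14.7 to 18.9), and Cebpa, a factor of granulocyte and monocyte differentiation, was 15.5-fold lower (13.8 to 17.5). After IL-4 in WT, 20 of 38 rose and 11 fell, with a median of 0.40 against 0.15 for all genes, of which 38.8% rose and 21.8% fell. Batf3 rose 24.1-fold (17.8 to 33.5) and Nfil3 6.75-fold (5.83 to 7.86). Between cKO and WT, 9 of 37 were higher and 14 lower without treatment, 6 of 36 higher and 5 lower after LPS, and 4 of 37 higher and 6 lower after IL-4. Of all genes, 21.9% were higher and 26.1% lower without treatment, with LPS 17.3% and 8.9%, with IL-4 14% and 10.6%. Cebpb, a regulator of inflammatory genes, was 2.09-fold lower in untreated cKO (1.90 to 2.31), and Batf3 was 1.83-fold lower in cKO after IL-4 (1.65 to 2.03), where Batf was higher. In Raw264.7 cells, 18 of 38 were higher and 8 lower with D/E-A (36.7% and 35.9% of all genes), and 15 of 41 and 8 in Zmynd8 KO (33.8% and 36.5%). With K122R 21 of 37 were higher and 4 lower (30.8% and 32.5% of all genes), and in p65 KO 12 of 38 and 3 (26.3% and 25.7%). Without ribosomal RNA entries the counts were 12 and 12 with D/E-A and 9 and 9 in Zmynd8 KO, and in CPM of the recovered reads 14 and 4 with K122R. Over all genes the counts were then 3382 and 5435 of 12770 with D/E-A, and 4089 and 6412 of 21301 in Zmynd8 KO. With K122R they were 2746 and 6029 of 19669.

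A list of 20 other immediate-early genes gave 7 genes that rose and 9 that fell of 19 tested after LPS in WT (20.7% and 61.3% of all genes), and 12 and 6 under the median ratio. Ier3, which limits cell death, rose 8.38-fold (7.23 to 9.76) and Klf4 6.74-fold (5.77 to 7.92), while Egr2 was 25.4-fold lower (17.0 to 39.5). Myc fell from 52.2 CPM to 0.120 CPM. After IL-4 in WT, 6 of 20 rose and 11 fell (38.8% and 21.8% of all genes), and Egr2, a factor of alternative activation, rose 10.4-fold (9.60 to 11.3), whereas Egr1 was 10.8-fold lower (8.39 to 14.1). In cKO against WT after LPS, 9 of 18 were higher and 2 lower, and the median was 0.25 against 0.03 for all genes, of which 17.3% were higher and 8.9% lower. Egr1 was 2.23-fold higher (1.70 to 2.96). Of the list, 4 of 19 were higher and 4 lower without treatment (21.9% and 26.1% of all genes), and 3 of 19 higher and 6 lower after IL-4 (14% and 10.6%). In Raw264.7 cells, 13 of 20 were higher and 2 lower with D/E-A (36.7% and 35.9% of all genes) and 11 higher and 2 lower in Zmynd8 KO (33.8% and 36.5%). Without ribosomal RNA entries these counts were 10 and 5 with D/E-A and 5 and 2 in Zmynd8 KO, with the counts over all genes as given for the bZIP list. With K122R 11 were higher and 6 lower (30.8% and 32.5% of all genes), and in p65 KO 11 were higher and 1 lower (26.3% and 25.7%).

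A list of 27 genes of the MAP kinase modules upstream of AP-1 gave 6 genes that rose and 17 that fell of 24 tested after LPS in WT (20.7% and 61.3% of all genes), with a median of -0.76 against -0.58, and 9 and 9 under the median ratio. Map3k8, the kinase TPL2 that links NF-κB signals to ERK, rose 3.17-fold (2.80 to 3.60), and Mapk14, which encodes p38α, was 2.51-fold lower (2.34 to 2.70). After IL-4 in WT, 11 of 24 rose and 3 fell (38.8% and 21.8% of all genes), and Mapkapk3 rose 5.73-fold (5.40 to 6.08). Between cKO and WT, 1 of 24 was higher and 8 lower without treatment, 4 of 24 higher and 0 lower after LPS, and 3 of 25 higher and 4 lower after IL-4. The shares over all genes were again as given for the bZIP list, so that the 4 of 24 after LPS lie near the background. Map3k1 was 1.89-fold lower in untreated cKO (1.74 to 2.06) and Rps6ka3 1.30-fold higher in cKO after LPS (1.22 to 1.38). In Raw264.7 cells, 15 of 24 were higher and 4 lower with D/E-A, 11 of 26 and 5 in Zmynd8 KO, 8 of 24 and 1 with K122R, and 6 of 25 and 3 in p65 KO. Without ribosomal RNA entries the counts were 11 and 6 with D/E-A and 9 and 8 in Zmynd8 KO, with the counts over all genes as given for the bZIP list. The shares over all genes in these 4 comparisons are those beside the immediate-early list. With an assumed coefficient of variation of 0.2, 0 genes of any of the 3 lists were called between cKO and WT, where few of all genes were called, as given above.

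Fos and Batf lie on chromosome 12 with Jdp2, a bZIP repressor, between them. In mm10 with the GENCODE vM21 annotation, Fos spans chr12:85473890-85477273, Jdp2 chr12:85599027-85639878 and Batf chr12:85686669-85709087, all on the plus strand. Jdp2 was at 10.0 CPM in WT and 13.5 CPM in cKO without treatment, at 167 and 163 CPM with LPS and at 14.6 and 23.9 CPM with IL-4. Jdp2 and Batf rose with LPS and Fos fell, and after IL-4 Batf was at 3.66 and 9.95 CPM. By the root mean square difference of their centred log2 levels over the 6 BMDM libraries, Jdp2 was the second nearest to Batf among 9933 genes, at 0.28, behind Gm42547 at 0.24 and before Fanca at 0.29, while the median over genes was 1.91. The nearest genes to the other members were Smc3 for Fos (0.03), Pdlim5 for Fosl2 (0.09), Nae1 for Jun (0.04), Pik3r6 for Junb (0.10), Tmem106a for Jund (0.06), Hdac7 for Atf3 (0.08) and Acot7 for Maff (0.09), over the same 6 libraries, whose treatments and depths are the same for every gene compared.

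The other members lie on chromosome 7 (Fosb, 19302696 to 19310226, minus strand), chromosome 5 (Fosl2, 32136472 to 32157840, plus), chromosome 4 (Jun, 95049036 to 95052222, minus), chromosome 8 (Junb, 84976909 to 84978748, minus, and Jund, 70697739 to 70700616, plus), chromosome 1 (Atf3, 191170296 to 191183333, minus) and chromosome 15 (Maff, 79346621 to 79359078, plus) of mm10. Whether the counting used strand is not given in the sources used here, so reads of a gene and of a transcript on the opposite strand cannot be told apart. Junos, which overlaps Jun on the opposite strand, was given 83 reads in WT and 201 in cKO without treatment, 12 and 12 with LPS, and 366 and 1025 with IL-4. Jun held 4185 and 3911 reads in the IL-4 libraries. Gm11175, on the opposite strand of Jund, was given 66 reads in cKO after LPS and at most 1 read in every other BMDM library. In the GENCODE vM21 annotation Prdx2, on the opposite strand, overlaps Junb, although its end at 84974834 lies outside the Junb span given above. Over its whole length Prdx2 was given 3152 reads in WT and 3437 in cKO without treatment. It had 3635 and 2815 reads with LPS, and 3929 and 3386 with IL-4.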

How the data were processed

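RNA-seq was used from 12 libraries, grouped by the labels, with 1 library in each group. For BMDMs, TopHat and the mm10 transcriptome were used for alignment, and the authors deposited estimated counts and TPM for each gene. Of these, 75.2% to 76.6% of the counts above 0 were exactly whole, with no tolerance, and all were rounded here. The Raw264.7 tables hold a signal value for each gene as the authors deposited it, which came out as a whole number of reads (within 0.05 reads) divided by a size factor in nearly all genes, and the aligner and counter are not given in the sources used here. The tables were normalized separately, and 2 unlabelled columns that hold per-sample values were left out. The authors' fold changes and p-values were left aside. For the Raw264.7 tables the design had expected counts. Its rule for tables without counts, a fold of values plus 1, was applied instead.

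In BMDMs, log2 fold changes were taken on CPM plus 1 where the mean reached 10 reads, and calls needed a fold of 1.2 and a Benjamini-Hochberg adjusted p under 0.05 (exact binomial, two-sided, on the reads of a pair of libraries, over all genes tested). In Raw264.7 cells, the fold of 1.2 alone was used, for genes whose mean value reached 1. Folds of reads carry 95% Clopper-Pearson limits and levels 95% exact Poisson intervals, which cover counting error only. An assumed biological coefficient of variation of 0.2 was run with edgeR 4.0.16 (R 4.3.3), and scalings with edgeR (TMM) and DESeq2 1.42.0 (median ratio). Other steps used Python 3.11.15 with numpy 2.4.6, pandas 2.3.3 and scipy 1.17.1, and the procedure was tested on simulated data. Also tried were all genes without a filter, a pseudocount of 0.1, a fold of 2, recovered reads and, chosen after seeing the data, TPM, totals without ribosomal RNA entries and a fit of genotype plus treatment over the 6 BMDM libraries (edgeR quasi-likelihood).

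The 9 genes and the lists of other bZIP, immediate-early and MAP kinase genes were chosen with earlier results of these data known. From each list the text names some of the genes with the largest called changes, in each direction, among those with a mean of at least 100 reads in BMDMs or a value of 10 in Raw264.7 cells. Other named genes are the targeted genes, Xist, Lyz2, Jdp2, the nearest genes by level and the genes that overlap a member.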

Additional observations from a re-analysis of the deposited data

Results flagged for a closer look

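In cKO against WT BMDMs, Fosl2 and Batf went in opposite directions between conditions. On the log2 scale of CPM plus 1, Fosl2 was 0.59 lower in cKO without treatment, 0.29 higher after LPS and 0.39 lower after IL-4, so the effect differed by 0.88 between LPS and NT and by -0.68 between IL-4 and LPS. Batf was 0.57 higher without treatment, 0.35 lower after LPS and 1.23 higher after IL-4, so the effect differed by -0.92 between LPS and NT and by 1.58 between IL-4 and LPS. Each condition has 1 library of each genotype, so these differences have no replicate test, and those between IL-4 and LPS were not tested.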

How the results depend on the processing

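With 1 library per group, pairs of libraries have no replicate to leave out, and no library was left out of the fit over 6. Replicate numbers pair nothing here, and pairing by condition is the fit of genotype plus treatment, whose counts of members were 0 (cKO), 7 (LPS) and 3 (IL-4), and 0, 7 and 4 under TMM. Of 79 counts of called members under the alternatives, 62 stayed within 1.5 times the reported count. With a fold of at least 2, 0 members were called in cKO against WT without treatment, 0 after LPS and 1 after IL-4, 5 for LPS in WT, 2 for IL-4 in WT and 3 in cKO, 2 for D/E-A, 0 for Zmynd8 KO, 2 for K122R and 1 for p65 KO. With an assumed coefficient of variation of 0.2, 0 members were called in cKO against WT in NT, 0 in LPS and 0 in IL-4, and 3 for IL-4 against NT in WT and 3 in cKO. The counts over all genes at this setting are given in the results. For K122R, recovered reads in CPM gave 5, and 5 without ribosomal RNA entries. Of 688 single member values, 575 stayed on their side of the call rule, among them 23 uncalled values whose sign changed, 92 lost the call, 17 gained one and 4 others changed sign with a call, or limits that exclude 0, before or after. The last were Fosl2 for LPS against NT in cKO, at 0.25 under the median ratio and 0.20 under TMM, and the difference of LPS responses on the TPM scale, at 0.28 for Junb and 0.13 for Jund; the cause was not tested. Of 219 counts over the other lists, 56 moved by more than 1.5 times.

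Scaling moved the median log2 of all genes by 0.59 (LPS in WT), 0.56 (LPS in cKO), -0.14 (IL-4 in WT) and -0.16 (IL-4 in cKO) with the median ratio, and the share of higher calls for IL-4 from 64.1% to 49.6% in WT and from 62.97% to 51.0% in cKO. On the TPM scale that share went from 45.6% to 22.0% in untreated cKO against WT, and without ribosomal RNA entries from 50.5% to 38.4% for D/E-A. Depth limits Fosb, with at most 8 reads in every library but the untreated BMDMs.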
